A study of Mus musculus with 30 samples.

Results

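Several receptors of the tumour necrosis factor (TNF) receptor superfamily lie near Per3 on distal chromosome 4 of the mouse, and one of them, Tnfrsf14, has binding partners that are encoded elsewhere. The genes described here are these 5 receptor genes (Tnfrsf9, Tnfrsf25, Tnfrsf14, Tnfrsf4 and Tnfrsf18) and 3 partner genes of Tnfrsf14 (Tnfsf14, Btla and Cd160), taken by gene name from the array annotation. They are measured by 12 of the 41174 probes that are not controls. The receptors have 9 of these probes and the partners 3. Tnfrsf14 was chosen by its signal in these same arrays, which differed between the genotypes, so its genotype values are given as a description without a test. The other 7 genes are included by family, location or binding, and no probe of theirs was left out.

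TNF receptors are membrane proteins that are bound by trimeric ligands and signal through TRAF adaptor proteins, mostly to NF-kappaB. Tnfrsf14, also called HVEM, is a receptor for the TNF ligand Tnfsf14 (LIGHT) and also binds Btla and Cd160, which belong to the immunoglobulin superfamily and pass signals into the lymphocytes that carry them. Tnfrsf4 (OX40), Tnfrsf9 (4-1BB), Tnfrsf18 (GITR) and Tnfrsf25 (DR3) are known as costimulatory receptors of T cells.

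RNA came from adult male mice that lacked Per3, a gene of the circadian clock (Per3-/-), and from their wild-type (WT) siblings. The background strain of both genotypes was C57Bl/6J. All of them were killed in cycle 17 of an ultradian schedule of 3.5 h of light and 3.5 h of darkness, so no group was kept outside that schedule. A block of hypothalamus was measured in 8 WT and 8 Per3-/- mice, and the whole eye in 7 WT and 7 Per3-/- mice, with 1 array per mouse and tissue. The study compared the genotypes within each tissue to find transcripts that change where Per3 is absent. Each level is the log2 of the probe's signal relative to the 75th percentile of its array, so that 0 is the signal at that percentile, and a value is called well above background where the scanner software marks it so. Levels of different probes are not comparable with each other, because probes bind with different strength.

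The labelled tissues were checked by marker genes. All 8 eye markers, among them rhodopsin and lens crystallins, were higher on every eye array than on any hypothalamus array, and 7 of 8 hypothalamic markers were higher on every hypothalamus array. The exception was Pomc. On the hypothalamus array of Per3-/- mouse 1 it stood at 8.66, against 1.71 to 3.34 on the other 15. The Per3 probe, the check of the targeted gene, ranged from -3.79 to -3.28 in WT and from -4.21 to -3.59 in Per3-/- hypothalamus, a difference of -0.51 ± 0.09 (SE; limma adjusted p = 0.067, n = 8 and 8). Without Per3-/- mouse 1 the adjusted p was 0.011, and without WT mouse 7 it was 0.025. In 7 of 8 Per3-/- mice it was below every WT mouse. In the eye it ranged from -3.55 to -2.57 in WT and from -4.12 to -2.90 in Per3-/- mice (-0.45 ± 0.23, adjusted p = 1.0, n = 7 and 7). In these mice a cassette stands in place of an exon and the intron after it, and a longer Per3 mRNA is still made, as the study describes the allele. The exon that this probe reads was not determined here, so the probe does not test the deletion itself. Between 67.9% and 80.7% of probes were well above background on an array.

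Tnfrsf14 is represented by 2 probes of 60 bases, both on the minus strand of chromosome 4 (mm9). A_51_P230583 lies at 154296274 to 154296333 and A_51_P230589 at 154296327 to 154296386, annotated in the array files to 1 transcript accession each. They are shown because they overlap, so that they read almost adjacent stretches of the gene and are not independent of each other. Capitals mark the 7 bases they share.
A_51_P230589: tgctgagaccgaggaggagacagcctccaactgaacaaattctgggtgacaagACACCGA
A_51_P230583: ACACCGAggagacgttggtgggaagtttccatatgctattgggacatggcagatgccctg

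Tnfrsf14 signal was higher in Per3-/- mice at both probes and in both tissues. In the eye, A_51_P230583 had a lowest, median and highest level of -6.14, -5.45 and -4.53 in the 7 WT mice and of -4.14, -3.87 and -3.62 in the 7 Per3-/- mice. Every Per3-/- eye was above every WT eye, the mean difference was 1.54 ± 0.23 (SE), which is 2.91-fold, and all arrays were well above background. The levels of A_51_P230589 were -7.50, -6.64 and -5.45 in WT eyes and -5.06, -4.75 and -4.65 in Per3-/- eyes. The groups again did not overlap. This probe was well above background in 2 of 7 WT and 7 of 7 Per3-/- eyes, so its difference of 1.62 ± 0.26 is taken against WT values that are mostly background signal, and no fold is given.

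At both Tnfrsf14 probes the eyes of the WT mice spread more widely than those of the Per3-/- mice. The standard deviation of A_51_P230583 was 0.62 in WT and 0.16 in Per3-/- eyes (n = 7 each). That of A_51_P230589 was 0.72 and 0.17, with WT values that are mostly background signal. Other members varied in this, with 0.82 and 0.39 for Tnfsf14 and 0.43 and 0.78 for Tnfrsf4. The genotype difference of Tnfrsf14 was present on each of the 4 eye slides, all of which held both genotypes. Within slides it ranged from 0.90 to 2.29 for A_51_P230583 and from 0.97 to 2.05 for A_51_P230589. The lowest WT values of A_51_P230583 were the pair on slide 3.

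**Figure D1:**
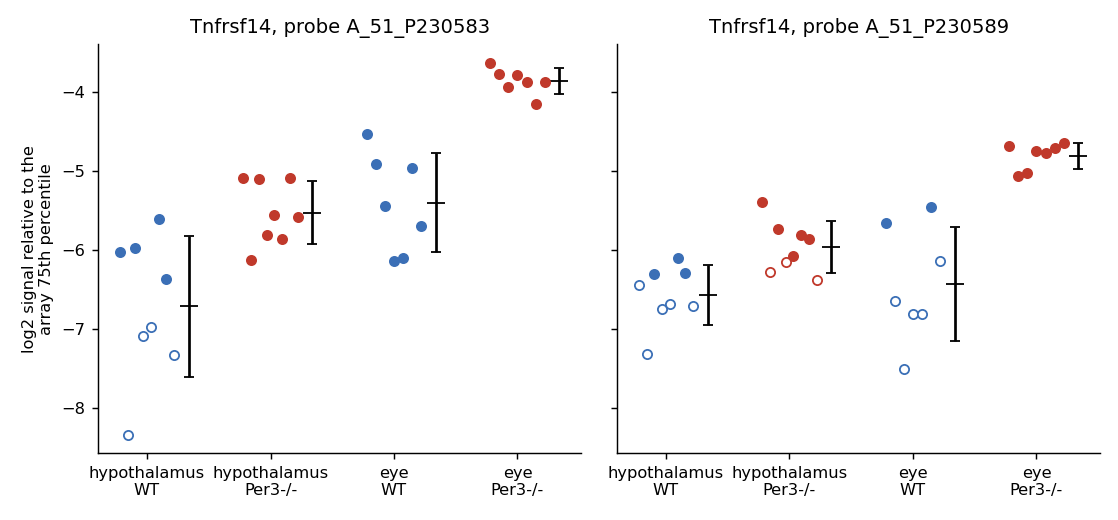
Level of the 2 Tnfrsf14 probes in each mouse (log2 signal relative to the array's 75th percentile, vertical axis) by tissue and genotype; filled points were well above background, open points were not, and the bars beside them give mean ± SD. Both probes separate the 7 Per3-/- eyes from the 7 WT eyes, and the hypothalamus groups overlap.

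In the hypothalamus the Tnfrsf14 groups overlapped. The lowest, median and highest levels of A_51_P230583 were -8.34, -6.67 and -5.61 in 8 WT mice and -6.13, -5.56 and -5.08 in 8 Per3-/- mice. The difference was 1.19 ± 0.33, and 5 of 8 Per3-/- mice were above every WT mouse. The probe was well above background in 4 of 8 WT and 8 of 8 Per3-/- mice. The other WT values are background signal, so no fold is given for this probe. For A_51_P230589 the levels were -7.31, -6.56 and -6.09 in WT and -6.38, -5.97 and -5.39 in Per3-/- mice, a difference of 0.61 ± 0.17. This probe was well above background in 3 of 8 WT and 5 of 8 Per3-/- mice. Its WT values are mostly background signal, so no fold is given. Per3-/- was higher within each of the 4 slides at both probes, by 0.59 to 1.58 and by 0.38 to 1.04.

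The hypothalamic values rested on signals near the background and on how that background was handled. With normexp background correction the hypothalamic differences were 0.14 for A_51_P230583 and -0.02 for A_51_P230589, so the direction of the second was lost. The eye differences with normexp were 0.92 and 0.76. That correction started from the mean spot signal in the hypothalamus and from the median spot signal in the eye. It moved the median of all probes to -0.08 in the hypothalamus and to 0.18 in the eye. The tissues are therefore not compared under it. Per3-/- mouse 1, whose Pomc signal stood apart, had the highest hypothalamic level of both Tnfrsf14 probes, and WT mouse 2 had the lowest. Without Per3-/- mouse 1 the differences were 1.13 and 0.53, and without WT mouse 2 they were 0.96 and 0.51.

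The differences of Tnfrsf14 in the eye were larger than those in the hypothalamus by 0.37 for A_51_P230583 and by 1.02 for A_51_P230589, which is a description, since the same contrast chose the gene. Of the 10 probes of the other 7 genes, 0 passed an adjusted p of 0.05 for a difference in genotype effect between the tissues (limma, mouse as a random block), where 0.00486% of all probes did. At an unadjusted p under 0.05 there were 0 of these 10, against 2.21% of all probes.

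The order of the 4 groups differed between the Tnfrsf14 probes in its middle. A_51_P230583 averaged -3.86 in Per3-/- eyes, -5.40 in WT eyes, -5.52 in Per3-/- hypothalamus and -6.71 in WT hypothalamus. The range of the Per3-/- hypothalamus lay inside that of the WT eyes. A_51_P230589 averaged -4.81 in Per3-/- eyes, -5.96 in Per3-/- hypothalamus, -6.43 in WT eyes and -6.57 in WT hypothalamus. At both probes the Per3-/- eyes were above every array of the other groups, and those 3 groups overlapped with each other.

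The other receptors are arranged around Per3 in the order Tnfrsf9, Per3, Tnfrsf25, Tnfrsf14, Tnfrsf4 and Tnfrsf18. On mm9 the nearest Tnfrsf9 probe started at -59.7 kb from the Per3 probe, and the Tnfrsf25 probes lay 1.11 Mb, the Tnfrsf14 probes 3.92 Mb, the Tnfrsf4 probe 5.01 Mb and the Tnfrsf18 probe 5.02 Mb on its other side. Of the 10 member probes other than those of Tnfrsf14, 0 passed an adjusted p of 0.05 for the genotype difference in the hypothalamus, where 0.0413% of all probes did, and 0 passed in the eye, where 0.0194% did. With the replicate number as a block, 1 probe of the whole array passed in the eye in place of 8, and none of these 10. At an unadjusted p under 0.05 the limma fit had 2 of the 10 in the hypothalamus (one probe of Tnfrsf25 and that of Tnfrsf18), where 2.82% of all probes had it, and 0 in the eye, where 1.8% did. The median difference over the 7 receptor probes other than those of Tnfrsf14 was 0.22 in the hypothalamus and -0.02 in the eye, and over all probes it was -0.01 and 0.00.

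**Figure D2:**
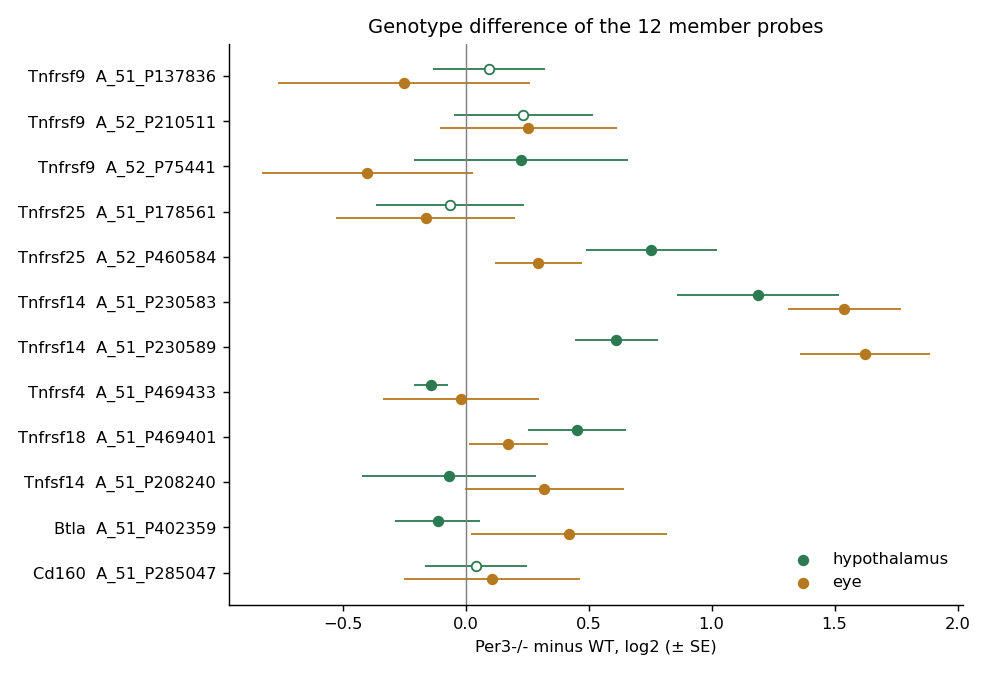
Genotype difference (Per3-/- minus WT, log2 ± SE, horizontal axis) of each of the 12 member probes in hypothalamus and eye; open points had no array well above background in either genotype. The Tnfrsf14 probes lie between 0.61 and 1.62, and the other probes between -0.40 and 0.76.

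Tnfrsf25, the receptor for the TNF ligand Tnfsf15, is read by 2 probes on the plus strand of chromosome 4 (mm9), at 151490755 to 151490814 and at 151494156 to 151494215. They are shown because they differed in base composition and in their values. G and C make up 55% of the first and 36.7% of the second.
A_51_P178561: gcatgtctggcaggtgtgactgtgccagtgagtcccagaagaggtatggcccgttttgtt
A_52_P460584: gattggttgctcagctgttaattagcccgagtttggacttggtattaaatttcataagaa

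Probe A_52_P460584 of Tnfrsf25 was well above background on all 30 arrays. Its lowest, median and highest levels in the hypothalamus were -3.53, -2.58 and -2.09 in WT and -2.94, -1.83 and -1.34 in Per3-/- mice. The groups overlapped, with 5 of 8 Per3-/- mice above every WT mouse, and the difference of 0.76 ± 0.27 (1.69-fold) did not pass the test (adjusted p = 0.99). It was positive on each of the 4 slides, from 0.27 to 1.37. In the eye the levels were -1.60, -1.30 and -0.63 in WT and -1.34, -0.80 and -0.43 in Per3-/- mice, a difference of 0.30 ± 0.18 (adjusted p = 1.0).

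The other Tnfrsf25 probe, A_51_P178561, showed no such difference. It was well above background on no hypothalamus array, and in the eye on 6 of 7 arrays of each genotype, with medians of -5.22 in WT and -5.26 in Per3-/- mice and a difference of -0.16 ± 0.36. The 2 probes of this gene therefore gave differences of opposite sign in the eye, neither larger than 2 SE.

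Tnfrsf18 and Tnfrsf4 lie side by side, with probes at 155402849 to 155402908 and at 155390635 to 155390694 on the plus strand of chromosome 4 (mm9). The Tnfrsf18 probe (A_51_P469401) had levels of -7.10, -6.17 and -5.48 in WT and -6.27, -5.68 and -5.03 in Per3-/- hypothalamus. It was well above background in 6 of 8 WT and 7 of 8 Per3-/- mice, and the difference was 0.45 ± 0.20 (adjusted p = 0.99). Per3-/- was higher on 2 of 4 slides, and with normexp correction the difference was -0.03, where the median of all probes was -0.08. As for Tnfrsf14, the highest value was that of Per3-/- mouse 1 and the lowest that of WT mouse 2. In the eye the same probe differed by 0.17 ± 0.16 (adjusted p = 1.0).

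The Tnfrsf4 probe (A_51_P469433) was well above background on all 30 arrays and had, of the 12 member probes, the smallest SD in either hypothalamus group (0.15 in WT and 0.12 in Per3-/- mice). Its levels were -3.52, -3.33 and -3.08 in WT and -3.61, -3.46 and -3.23 in Per3-/- hypothalamus, a difference of -0.14 ± 0.07 (adjusted p = 0.99) that was negative on each of the 4 slides. In the eye it ranged from -2.68 to -1.50 in WT and from -3.06 to -0.79 in Per3-/- mice, and the means differed by -0.02 ± 0.32. In the hypothalamus the differences of Tnfrsf4 and Tnfrsf18 had opposite signs, neither past the test. With normexp correction both were negative (-0.165 and -0.025), so an opposite direction is not settled.

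Tnfrsf9, the receptor nearest to Per3, has 3 probes and was at background on most arrays. A_51_P137836 was well above background on 1 of 30 arrays, A_52_P75441 on 2 and A_52_P210511 on 4. Their differences lay between 0.09 and 0.24 in the hypothalamus and between -0.40 and 0.26 in the eye, with standard errors from 0.23 to 0.51, and compare background signals. A_51_P137836 is shown because it reads a region outside those of the other probes. Its last 40 bases, in capitals, match the window of 250 bases before to 50 after the start of a Tnfrsf9 transcript in RefSeq (GRCm38.p6).
A_51_P137836: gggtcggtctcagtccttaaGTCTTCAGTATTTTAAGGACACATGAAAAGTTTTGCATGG

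The 3 partners of Tnfrsf14 lie on other chromosomes, Tnfsf14 on chromosome 17, Btla on 16 and Cd160 on 3, with 1 probe each. On mm9 these are at 57329192 to 57329251 (minus strand) for Tnfsf14 and at 45252118 to 45252177 (plus strand) for Btla. The Cd160 probe is mapped to 96609753 to 96612738 (minus strand), a stretch longer than its 60 bases. Their median genotype difference was -0.07 in the hypothalamus and 0.32 in the eye. Tnfsf14, the TNF ligand, was well above background on 1 of 16 hypothalamus arrays and on all 14 eye arrays. Its eye levels were -5.96, -4.93 and -3.79 in WT and -5.00, -4.67 and -4.06 in Per3-/- mice, and the difference of 0.32 ± 0.32 was about the size of its error (adjusted p = 1.0).

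Cd160, a receptor of natural killer and T cells, was well above background on no hypothalamus array and on 13 of 14 eye arrays. Its eye levels were -6.38, -5.15 and -4.28 in WT and -6.09, -5.26 and -4.23 in Per3-/- mice, a difference of 0.11 ± 0.36 (adjusted p = 1.0). Btla, an inhibitory receptor of B and T cells, showed the reverse detection, with 7 of 16 hypothalamus arrays and 1 of 14 eye arrays well above background. In the hypothalamus it ranged from -7.35 to -5.95 in WT and from -7.03 to -6.09 in Per3-/- mice, a difference of -0.11 ± 0.17 (adjusted p = 0.99). Its eye difference of 0.42 ± 0.40 compares background signals.

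No Per3-/- hypothalamus group of a member probe lay wholly above the WT group (0 of 12, where 0.00729% of all probes did so). In the eye 2 of 12 did, where 0.0219% of all probes did so. These are the Tnfrsf14 probes that the rule chose, and nothing is read from that count.

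**Figure D3:**
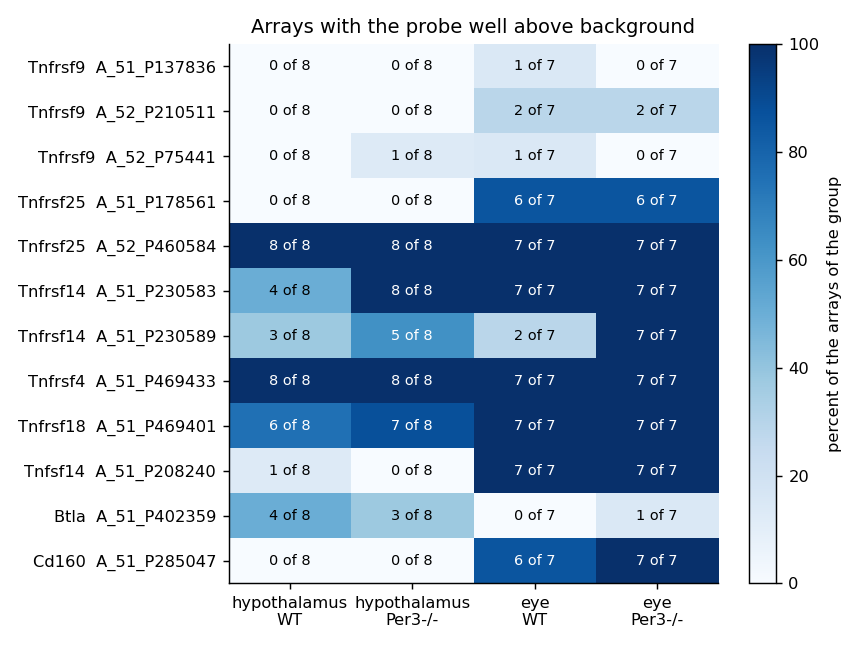
Number of arrays on which each member probe was well above background, by tissue and genotype (colour, percent of the arrays of the group). Only the Tnfrsf4 probe and one Tnfrsf25 probe reach all 30 arrays.

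Detection and level of most members were higher in the eye than in the hypothalamus. The rule did not use this comparison, but for Tnfrsf14 it draws on the values by which the gene was chosen. Of the 360 pairs of a member probe and an array, 185 were well above background. In WT mice 9 of 12 probes passed an adjusted p of 0.05 as higher in the eye (42.1% of all probes did) and 1, that of Btla, as lower (33.6% of all). In Per3-/- mice the counts were 9 higher (44.4% of all) and 1 lower (33.4% of all). Of the 10 probes other than those of Tnfrsf14, 8 were higher and 1 lower in WT mice, and 7 and 1 in Per3-/- mice. The median difference over the 12 probes was 1.24 in WT and 1.23 in Per3-/- mice, against 0.16 and 0.23 over all probes. Over those 10 probes it was 1.35 and 1.18. Eye and hypothalamus arrays shared no slide, so tissue and array run cannot be told apart. In whole tissue, fewer cells of a type and less RNA per cell cannot be told apart either.

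The receptors with the widest separation were Tnfrsf18 and Tnfrsf25. Tnfrsf18 averaged -3.14 in WT eyes and -6.15 in WT hypothalamus, a difference of 3.01 ± 0.18 (8.04-fold, adjusted p = 4.4e-15), and 2.74 ± 0.18 in Per3-/- mice (adjusted p = 4e-14). Every eye was above every hypothalamus in both genotypes. Tnfrsf25 probe A_52_P460584 was higher in the eye by 1.52 ± 0.23 in WT (adjusted p = 8.7e-07) and by 1.06 ± 0.23 in Per3-/- mice (adjusted p = 0.00016). Probe A_51_P178561 of the same gene, which no hypothalamus array measured, was at least 2.05-fold higher in WT eyes (adjusted p = 2.3e-06) and at least 1.93-fold higher in Per3-/- eyes (adjusted p = 4.8e-06). Such bounds set the mean of the brighter group against the lowest signal that was well above background on each array of the dimmer one. Tnfrsf4 was higher by 1.18 ± 0.22 in WT (adjusted p = 1.6e-05) and by 1.30 ± 0.22 in Per3-/- mice (adjusted p = 3.6e-06). Of the Tnfrsf9 probes, A_52_P210511 passed the test as higher in WT eyes (adjusted p = 0.0089) and in Per3-/- eyes (adjusted p = 0.0078). It was well above background in 2 of 7 eyes of each genotype and on no hypothalamus array. The test therefore compares mostly background signals, and no size is given. Quantile normalization ended both calls of A_52_P210511 (adjusted p = 0.47 and 0.57). Tnfrsf9 probe A_51_P137836 also passed in WT mice (adjusted p = 0.016) but not in Per3-/- mice (adjusted p = 0.1). It was well above background in 1 of 7 WT eyes and on no hypothalamus array, so this call too compares mostly background signals.

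Tnfrsf14 itself is described without a test, because the values that chose it enter this comparison. It was higher in the eye in Per3-/- mice at both probes, by 1.67 ± 0.29 for A_51_P230583 and by 1.16 ± 0.22 for A_51_P230589. In WT mice the first differed by 1.30 ± 0.29 and the second by 0.14 ± 0.22. The WT values depended on the scaling. With quantile normalization over all arrays they were 0.62 and -0.66, and that scaling moved the median of all probes from 0.16 to -0.07. The direction of Tnfrsf14 between the WT tissues is therefore not settled by these arrays.

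Among the partners, Tnfsf14 averaged -4.90 in WT eyes and -7.39 in WT hypothalamus (adjusted p = 1.3e-07), where 1 of 8 hypothalamus arrays was well above background and the other values are background signal. It was higher in the eye by at least 3.93-fold in Per3-/- mice (adjusted p = 7.8e-09). Cd160 was at least 2.35-fold higher in WT (adjusted p = 2.8e-09) and at least 2.68-fold higher in Per3-/- eyes (adjusted p = 1.7e-09). Btla passed the test with the lower signal in the eye, but its eye values are nearly all background, with 0 of 7 WT and 1 of 7 Per3-/- arrays well above it. Its means were -7.78 in WT eyes and -6.50 in WT hypothalamus (adjusted p = 0.0003), and -7.36 and -6.61 in Per3-/- mice (adjusted p = 0.024). The WT hypothalamic mean lay below the lowest signal that counts as measured in the eye, so no size is given. With normexp correction the Btla difference was -0.18 (adjusted p = 0.60) in WT and 0.45 (adjusted p = 0.096) in Per3-/- mice, where that correction moved the median of all probes to 0.57.

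**Figure D4:**
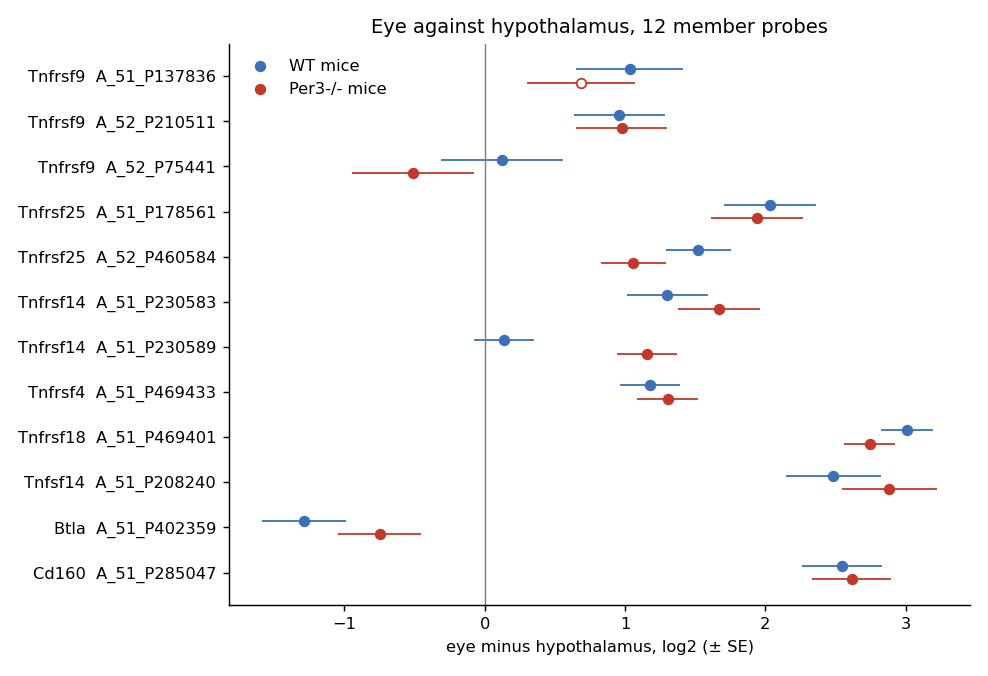
Difference between eye and hypothalamus (eye minus hypothalamus, log2 ± SE, horizontal axis) of the 12 member probes in WT and Per3-/- mice; open points had no array well above background in either tissue. Tnfrsf18 has the largest difference, 3.01 in WT mice, and the Btla points, left of 0 in both genotypes, compare hypothalamic signal with eye values that are nearly all background.

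More lymphocyte marker probes were higher in the eye than lower, which also held over all probes (42.1% higher and 33.6% lower in WT eyes). Of 20 probes of T cell markers 10 were higher and 3 lower in WT eyes. Of 12 probes of natural killer cell markers 6 were higher and 1 lower, and of 8 probes of B cell markers 7 were higher and 0 lower. The T cell and natural killer counts of higher probes were near the share of all probes. The summed linear level of the T cell list ranged from 1.19 to 1.35 in WT hypothalamus and from 1.09 to 1.82 in WT eyes, and that of the B cell list from 0.12 to 0.16 and from 0.18 to 0.49. The sum of the natural killer list went the other way, from 16 to 25.5 in WT hypothalamus and from 1.33 to 2.74 in WT eyes, through 1 probe. That is Klrb1c probe A_51_P476687, at a mean of 4.28 and 0.76, and without it the sum of the other 11 probes ranged from 0.12 to 0.16 in WT hypothalamus and from 0.30 to 0.41 in WT eyes. Of the T cell probes 8 were well above background on no hypothalamus array and 6 on no eye array. The defining natural killer gene Ncr1 was measured on no array of either tissue. Of the 20 probes of myeloid and microglial markers more were lower than higher, with 6 probes higher and 11 lower in WT eyes, and sums of 9.24 to 13.5 in WT hypothalamus and 5.39 to 7.13 in WT eyes. The part of these cells in the tissue differences was not tested.

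Between genotypes none of these marker lists had a probe past an adjusted p of 0.05 in either tissue (limma). At an unadjusted p under 0.05 the hypothalamus had 1 of 20 T cell and 1 of 12 natural killer probes. It also had 0 of 8 B cell and 1 of 20 myeloid probes, where 2.82% of all probes passed. The eye had 0, 1, 0 and 3 from the same lists, where 1.8% of all probes passed. Its 3 myeloid probes were all higher in Per3-/- mice, Cd68 by 0.25 and separate Ptprc probes by 0.43 and 0.35. The Ptprc probe at 0.35 was well above background on no eye array. The median difference of the T cell list was -0.06 in the hypothalamus and 0.07 in the eye, that of the natural killer list 0.17 and 0.13, that of the B cell list 0.01 and 0.06, and that of the myeloid list 0.06 and 0.12. The summed T cell level ranged from 1.04 to 1.31 in Per3-/- hypothalamus and from 1.06 to 1.56 in Per3-/- eyes, and the summed B cell level from 0.11 to 0.30 and from 0.25 to 0.44. For the natural killer list these ranges were 14.4 to 27.4 and 1.45 to 2.60 (0.12 to 2.05 and 0.36 to 0.44 without the Klrb1c probe), and for the myeloid list 11.7 to 13.2 and 6.05 to 7.14. All of them overlapped with the WT ranges, but 2.05 lay far above the WT hypothalamic maximum of 0.16. Of the 11 natural killer probes without that of Klrb1c, Eomes (1.64 ± 0.73) and Tbx21 (0.63 ± 0.62) had the largest hypothalamic differences. Neither passed the test (limma adjusted p = 0.99 each). Ncr1 and Gzma were well above background on no hypothalamus array. Which probes raised that sum was not tested. The part of these cells in the genotype differences was not tested.

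Within the eye, several members followed the slide and not the genotype. This was noticed in the values. For Tnfsf14 the slide means were -5.34 on slide 2, -4.73 on slide 3 and -3.97 on slide 4, and for Cd160 they were -6.01, -5.04 and -4.38. For Tnfrsf25 probe A_51_P178561 they were -6.42, -5.17 and -4.86. On each of these slides 2 WT and 2 Per3-/- mice lay together. Of the 12 member probes, 4 had every array of slide 4 above every array of slide 2 (18.2% of all probes did), the fourth being Tnfrsf9 probe A_52_P210511. Tnfrsf4 went the other way, with means of -1.64 on slide 2, -2.81 on slide 3 and -2.20 on slide 4.

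Marker probes were counted in the same way. Slide 4 was wholly above slide 2 for 8 of 20 T cell and 6 of 8 B cell marker probes, and for 3 of 12 natural killer and 2 of 20 myeloid and microglial ones, to be read against the 18.2% of all probes. The part of those cells in the slide differences was not tested. Of the Tnfrsf14 probes, A_51_P230583 averaged -4.51 on slide 2 and -4.67 on slide 4, and A_51_P230589 averaged -6.06 and -5.24. The arrays of these slides overlapped at both probes. With the slide in the model, the genotype differences of the partners in the eye stayed at 0.32 (Tnfsf14), 0.42 (Btla) and 0.11 (Cd160), each at an adjusted p of 1.0.

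**Figure D5:**
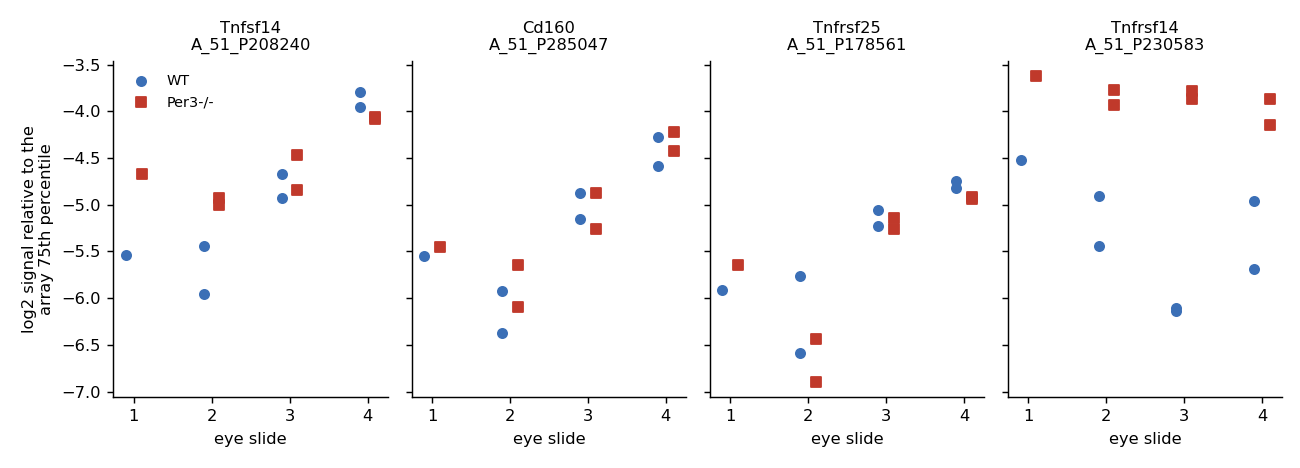
Level of 4 member probes in each eye (log2 signal relative to the array's 75th percentile, vertical axis) by array slide (horizontal axis), with WT mice as circles and Per3-/- mice as squares. Tnfsf14, Cd160 and this Tnfrsf25 probe rise from slide 2 to slide 4 in both genotypes, and Tnfrsf14 separates by genotype on each slide.

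The other ligands and partners of the pathway did not differ between genotypes past the test. Of the ligands of the other receptors, Tnfsf9 (for Tnfrsf9) differed by 0.13 ± 0.06 in the hypothalamus and 0.24 ± 0.17 in the eye, and Tnfsf15 (for Tnfrsf25) by -0.02 ± 0.14 and -0.08 ± 0.27. Tnfsf4 (for Tnfrsf4) was measured on 1 of 16 hypothalamus arrays and on all eye arrays, where it differed by 0.01 ± 0.39. Tnfsf18 (for Tnfrsf18) was measured on no array. The median of the 4 probes was 0.06 in the hypothalamus and 0.01 in the eye.

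Ltbr, the lymphotoxin beta receptor that also binds Tnfsf14, differed by 0.05 ± 0.07 in the hypothalamus and by -0.02 ± 0.09 in the eye. Ltb, a subunit of its ligand, differed by -0.05 ± 0.05 and by 0.35 ± 0.14 (adjusted p = 1.0 in the eye). Lta, which forms the other ligand subunit, differed by -0.13 ± 0.08 and -0.07 ± 0.15. Lrfn5, a synaptic adhesion protein known to bind Tnfrsf14 in neural tissue, differed by -0.09 ± 0.05 and 0.04 ± 0.09 and was measured on every array.

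Of 35 probes of 23 other TNF receptor superfamily genes, 0 passed the test in either tissue, with medians of -0.04 (hypothalamus) and 0.02 (eye). At an unadjusted p under 0.05 there were 0 and 2 of them, where 2.82% and 1.8% of all probes had it. The largest differences among measured probes were those of Tnfrsf10b in the hypothalamus (-0.34 ± 0.39) and of Tnfrsf17 in the eye (-0.22 ± 0.13). Of 36 probes of 23 genes of receptor signalling and NF-kappaB, such as the TRAF adaptors and the NF-kappaB subunits, 0 passed (2 and 0 unadjusted), with medians of 0.03 and 0.02. The largest were Ripk1 in the hypothalamus (0.21 ± 0.09, adjusted p = 0.99) and Birc3 in the eye (0.19 ± 0.11, adjusted p = 1.0).

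Other genes around the receptors were compared between the genotypes in the same fit. Within 100 kb of the Tnfrsf14 probes lie 8 probes of 7 other genes. All arrays of at least 1 genotype measured 8 of them in the hypothalamus and 7 in the eye, and these differed by -0.53 to 0.11 in the hypothalamus and by -0.26 to 0.36 in the eye, and 0 passed the test. None passed within 100 kb of Tnfrsf9, Tnfrsf4 or Tnfrsf18 in either tissue. Within 100 kb of Tnfrsf25, 2 of 12 probes passed in the eye and both were lower in Per3-/- mice. They belong to Espn, an actin-bundling protein of stereocilia and other membrane protrusions, and differed by -0.82 ± 0.12 (adjusted p = 0.042) and -0.94 ± 0.11 (adjusted p = 0.0059).

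The probes most like Tnfrsf14 probe A_51_P230583 were found by Pearson correlation over the arrays of a tissue, among probes of other genes measured on every array of it, as a description without a test. Both genotypes were in the correlation, so a shared genotype difference raises it. In the eye, over 14 arrays and 27882 probes, they were Gltpd1 (r = 0.896), B3galt6 (r = 0.807) and Rnf185 (r = 0.786). Gltpd1 and B3galt6 lie on chromosome 4, with probes 943.5 kb and 1069.1 kb from that of Tnfrsf14. The mean level of Gltpd1 was -0.10 in WT and 0.30 in Per3-/- eyes, and 0.23 in WT and 0.82 in Per3-/- hypothalamus. In the hypothalamus, over 16 arrays and 27149 probes, the most like were 5730577I03Rik (r = 0.813), Fmo5 (r = 0.788) and Stk17b (r = 0.778), which lie on chromosomes 9, 3 and 1.

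The start sites of the 8 genes were searched for the E-box CACGTG, which reads the same on both strands and is the site of the clock activators CLOCK and BMAL1, and for the D-box TTATGTAA on both strands. In RefSeq (GRCm38.p6) all 8 genes have 1 or more windows of 300 bases around a start, 11 in all. The E-box was present in 2 of them, one of Tnfrsf4 and one of Btla, and in 7.15% of the 32851 windows of all genes. The D-box was present in none of the 11 and in 0.938% of all windows. No window of Tnfrsf14 held either.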

How the data were processed

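RNA of 30 samples was hybridised with 1 label to Agilent arrays of 60-base probes. The authors extracted spot intensity with Feature Extraction 10.7.1.1 (per the file headers), without normalization between arrays, and analysed it in GeneSpring 12. They also deposited log2 values, used as an alternative, which matched those used here within 0.05 for over 99.9% of values once each probe was centred on its tissue median.

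Intensities were taken as log2 relative to the array's 75th percentile. Uneven or outlying spots were left out (none of a member). Genotypes were compared per probe with limma 3.58.1 (R 4.3.3). The tissue fit took all 30 arrays, the mouse being a random effect (correlation 0.059). P-values were two-sided and Benjamini-Hochberg adjusted over 41174 probes. Separate animals are the replicates, and their number limits the precision. The genotype fits, and the WT tissue contrast without the mouse effect, were tried on simulated data. The mouse effect and the difference in genotype effect between tissues were not. Positions are those of mm9 in the hypothalamus files.

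Members and gene lists were chosen with earlier results of these data known. Named are all member probes, Per3, the genes of the lists of other ligands and partners, the largest measured difference and any call of the receptor and signalling lists, and the 3 probes most like Tnfrsf14 per tissue. Espn was named after its values were seen. Deviations of same-numbered WT and Per3-/- mice correlated between 0.109 and 0.627 in the eye, where numbers 3 to 8 share slides. There 4 of 6 Per3-/- arrays correlated best with their own number. In the hypothalamus, where same numbers also share slides, they correlated between -0.0293 and 0.316. A pairing of mice by number cannot be told apart from the shared slide. The eyes of WT mouse 2 and Per3-/- mouse 1 were not analysed here.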

Additional observations from a re-analysis of the deposited data

Results flagged for a closer look

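Among 52 combinations of a probe (the 12 members and Per3) and a group, 7 held a mouse far from the others of its group, where chance gives about 1 in 20. For Tnfrsf9 probe A_52_P75441 these were WT hypothalamus 8 at -6.75 (nearest -7.83), Per3-/- hypothalamus 3 at -5.51 (nearest -7.65) and WT eye 3 at -5.55 (nearest -7.79). For Tnfrsf9 probe A_52_P210511 it was Per3-/- hypothalamus 8 at -8.41 (nearest -7.25). For Btla it was WT hypothalamus 2 at -7.35 (nearest -6.53), the mouse with the lowest Tnfrsf14 and Tnfrsf18 levels in that tissue. For Cd160 it was Per3-/- hypothalamus 8 at -7.04 (nearest -7.64), and for Per3 it was WT hypothalamus 7 at -3.79 (nearest -3.49). No Tnfrsf14 probe and no probe of Tnfrsf25, Tnfrsf4, Tnfrsf18 or Tnfsf14 held such a mouse.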

How the results depend on the processing

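For genotype, 0 of the 10 probes of the genes other than Tnfrsf14 passed the threshold in either tissue under any alternative run. Counting the Tnfrsf14 probes, which were chosen by this difference so that nothing is read from their calls, the number was 0 in the hypothalamus under each of them, and in the eye it was 1 with quantile normalization, 1 with only probes measured on every array of a genotype and 2 with the slide as a block, all of them Tnfrsf14 probes, and 0 to 1 when a mouse was left out (1 without WT mouse 1 and 1 without WT mouse 7). The replicate block gave Tnfrsf14 differences of 1.65 and 1.73 in the eye and changed no call of a member. In the hypothalamus it left 5 calls over the whole array in place of 17 and 0 members, and 1 of 8 Per3-/- mice correlated best with its own number. Over the whole array, normexp gave 10 calls in the hypothalamus and 4 in the eye, in place of 17 and 8, and 0 in place of 2 for the difference between tissues, where quantile normalization gave 1. The methods' t-test gave 14 and 7 after Benjamini-Hochberg adjustment, and 1255 and 835 probes at an unadjusted p under 0.05, with 0 members after adjustment in both tissues.

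For eye against hypothalamus in WT mice, 6 member probes in place of 10 passed with normexp and 6 with only probes measured on every array of a group. In Per3-/- mice the called probes of the whole array split into 18273 higher and 13754 lower, 14410 and 16429 with quantile normalization, and 23378 and 10338 with normexp. Btla lost its call in Per3-/- mice with the slide as a random block (adjusted p = 0.051) and without the eye of Per3-/- mouse 2 or 8 or the hypothalamus of mouse 2 (up to 0.091), and Tnfrsf9 probe A_51_P137836 in WT mice without eye mouse 1 (0.066). Counted by a weaker mark (positive and significant), 315 pairs of a probe and an array were detected in place of 185; the mark "found" gave 169 over the 16 hypothalamus arrays alone.

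Directions that turned were mostly those of dim probes. In the hypothalamus with normexp they were the Tnfrsf9 probes (-0.20, -0.15 and -0.17), Tnfrsf14 A_51_P230589 (-0.016), Tnfrsf18 (-0.025) and Cd160 (-0.17). There normexp moved the median of all probes to -0.08, and Tnfrsf14 A_51_P230589 and Tnfrsf18 lay above that median. With quantile normalization it was Tnfrsf25 A_51_P178561 (0.017). In the eye with normexp, which moved the median of all probes to 0.18, they were Tnfrsf9 A_51_P137836 (0.25; 0.017 with the replicate block) and A_52_P75441 (0.27), Tnfrsf25 A_51_P178561 (0.26) and Tnfrsf4 (0.16). Between tissues, quantile normalization turned Tnfrsf9 A_52_P75441 (-0.069) and Tnfrsf14 A_51_P230589 (-0.66) in WT mice, and normexp turned Tnfrsf9 A_52_P75441 (0.50) and Btla (0.45) in Per3-/- mice. The cause was not tested. Leaving out single mice turned hypothalamic differences of Tnfrsf9 A_51_P137836 (-0.005 to 0.24) and A_52_P75441 (-0.13 to 0.43), Tnfrsf25 A_51_P178561 (-0.22 to 0.087), Tnfsf14 (-0.25 to 0.13) and Cd160 (-0.061 to 0.19). In the eye it turned Tnfrsf9 A_51_P137836 (-0.45 to 0.085) and A_52_P75441 (-0.51 to 0.020), Tnfrsf25 A_51_P178561 (-0.35 to 0.053), Tnfrsf4 (-0.24 to 0.14) and Cd160 (-0.08 to 0.27), and between WT tissues Tnfrsf9 A_52_P75441 (-0.30 to 0.33) and Tnfrsf14 A_51_P230589 (-0.025 to 0.31). Tnfrsf14 kept its direction without any single mouse, from 0.96 to 1.35 and 0.51 to 0.68 in the hypothalamus and from 1.42 to 1.68 and 1.45 to 1.79 in the eye. Below the signal that is well above background, a difference compares background.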
